A study of Mus musculus with 8 samples.

Results

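Gfap, Vim, Nes and Synm encode the intermediate filament proteins of retinal glia, and their transcripts were followed in 8 libraries of retina from rd10 mice. The members were the rows of the deposited gene tables whose gene name equalled one of these 4 symbols. Each symbol had 1 row, so 4 of 54532 genes were taken, and all 4 passed the filter on low counts that left 17725 genes. The rd10 strain carries a mutation of Pde6b, a rod phosphodiesterase gene, and its rods and later its cones degenerate; every mouse of both groups carried it. By the titles, 4 libraries belonged to sIVs (small intracellular vesicles, numbers 2 to 5) and 4 to PBS (read as phosphate-buffered saline, numbers 1 to 4). Vesicle source, dose, route, age and time are missing from the labels, as is whether a library held 1 animal, so p-values cover library-to-library spread, which may be technical.

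Intermediate filaments are rope-like polymers that give a cell mechanical strength. Müller glia, which span the retina, hold vimentin at rest and add glial fibrillary acidic protein (GFAP) when the retina is injured or degenerates, whereas astrocytes of the inner surface hold GFAP at all times. Nestin and synemin do not form filaments by themselves and join those of vimentin or desmin; nestin is best known from neural progenitors, and synemin also ties filaments to adhesion sites.

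Library totals ran from 14640235 to 16989737 counts. All 10 rod markers and all 10 Müller glia markers examined had counts. Levels are in FPKM (fragments scaled by gene length, library total and 1 constant per library). Summed rod marker levels ran from 6814 to 8294 FPKM in PBS. They stood at 7825, 1784, 1705 and 6217 FPKM in sIVs libraries 2 to 5. Libraries 3 and 4 of sIVs thus stood apart from the other 6. Fold changes without them are given beside those of the filament genes, the gene lists and most other genes named. By a chi-square per gene of the counts, sIVs library 2 was nearer every PBS library than any other sIVs library. It was at 3.65, 4.73, 5.54 and 12.9 from PBS libraries 1 to 4. From sIVs libraries 3 to 5 it was at 61.6, 74.6 and 14.2. No gene passed the edgeR quasi-likelihood test at an adjusted p of 0.05 (0 of 17725 genes, 0% higher and 0% lower). At an unadjusted p under 0.05 there were 2702 genes, 9.61% of all genes higher and 5.63% lower. DESeq2 called 571 genes and limma-voom 0. At an adjusted p of 0.1 edgeR called 10 genes as higher (0.0564%), Nes among them, and 1 as lower (0.00564%).

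Gfap encodes GFAP, the classical marker of reactive glia (ENSMUSG00000020932, mm10 chromosome 11, 102887336 to 102900912, minus strand). Its level was 49.9, 47.5, 32.8 and 23.5 FPKM in PBS libraries 1 to 4, and 47.3, 127.1, 140.4 and 53.5 FPKM in sIVs libraries 2 to 5. Libraries 3 and 4 of sIVs were far above PBS, library 5 lay just above the highest PBS library and library 2 inside the PBS range. The means were 38.4 ± 12.5 FPKM in PBS and 92.1 ± 48.5 FPKM in sIVs (SD, n = 4 each), which on the log2 scale differed by 1.26 ± 0.38 (SE, 95% interval 0.41 to 2.11, edgeR adjusted p = 0.198). Without sIVs libraries 3 and 4 it was 0.39 ± 0.22 (SE, edgeR adjusted p = 0.48). Without sIVs library 2, a setting in which 1331 of 17999 genes passed, it was 1.48 (edgeR adjusted p = 0.0358). In bulk retina, more filament RNA per glial cell and more glial cells per sample cannot be told apart, here and below.

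Vim encodes vimentin, the filament of resting and reactive Müller glia that is also made by vascular, fibroblast and myeloid cells (ENSMUSG00000026728, chromosome 2, 13573927 to 13582826, plus strand). PBS libraries 1 to 4 stood at 57.3, 54.9, 46.1 and 35.4 FPKM, and sIVs libraries 2 to 5 at 68.0, 151.1, 145.5 and 107.2 FPKM. The groups did not overlap, and unlike Gfap the gene was well above PBS in sIVs library 5 too. Means were 48.4 ± 9.94 and 117.9 ± 38.6 FPKM (SD, n = 4 each), and the log2 fold change was 1.28 ± 0.25 (SE, 95% interval 0.73 to 1.84, edgeR adjusted p = 0.148). Without sIVs libraries 3 and 4 the log2 fold change was 0.85 ± 0.18 (SE, edgeR adjusted p = 0.147). Vim passed with DESeq2 (adjusted p = 8.882e-05), with no filter on low counts (edgeR adjusted p = 0.019) and without sIVs library 2 (1.47, edgeR adjusted p = 0.00574). These settings called 571 of 17725, 152 of 33760 and 1331 of 17999 genes.

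Nes encodes nestin (ENSMUSG00000004891, chromosome 3, 87971078 to 87980451, plus strand). It stood at 2.80, 2.73, 2.45 and 2.46 FPKM in PBS libraries 1 to 4 and at 5.10, 5.15, 3.96 and 3.99 FPKM in sIVs libraries 2 to 5. The groups were well separated, and the sIVs libraries highest for Nes were 2 and 3, not 3 and 4. The means were 2.61 ± 0.178 and 4.55 ± 0.665 FPKM (SD, n = 4 each), and the log2 fold change was 0.80 ± 0.12 (SE, 95% interval 0.54 to 1.06, edgeR adjusted p = 0.0868, ninth smallest p of all genes). That rank is a description, since the gene was known from earlier results of these data to have a small p. Without sIVs libraries 3 and 4 the log2 fold change was 0.79 ± 0.12 (SE, edgeR adjusted p = 0.0717). Like Vim, it passed with DESeq2 (adjusted p = 1.008e-05), with no filter on low counts (edgeR adjusted p = 0.0181) and without sIVs library 2 (0.74, edgeR adjusted p = 0.0115). Those are the settings with 571, 152 and 1331 genes called.

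Synm encodes synemin (ENSMUSG00000030554, chromosome 7, 67730160 to 67759742, minus strand). Its levels were 8.30, 8.00, 6.98 and 6.57 FPKM in PBS libraries 1 to 4 and 8.29, 9.46, 8.66 and 7.17 FPKM in sIVs libraries 2 to 5. The groups overlapped, with 2 of 4 sIVs libraries above every PBS library. Means were 7.46 ± 0.818 and 8.40 ± 0.953 FPKM (SD, n = 4 each), and the log2 fold change was 0.17 ± 0.10 (SE, 95% interval -0.06 to 0.40, edgeR adjusted p = 0.4695). It was 0.04 without sIVs libraries 3 and 4 (edgeR adjusted p = 0.894). Ttc23 and Gm45102 lie on the opposite strand with 84 and 426 exon bases in common with Synm, and whether counting used strand was not stated; their counts reached at most 11.4% and 0.314% of those of Synm in a library. Gm26668, opposite Gfap, shared 0 exon bases with it.

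**Figure D1:**
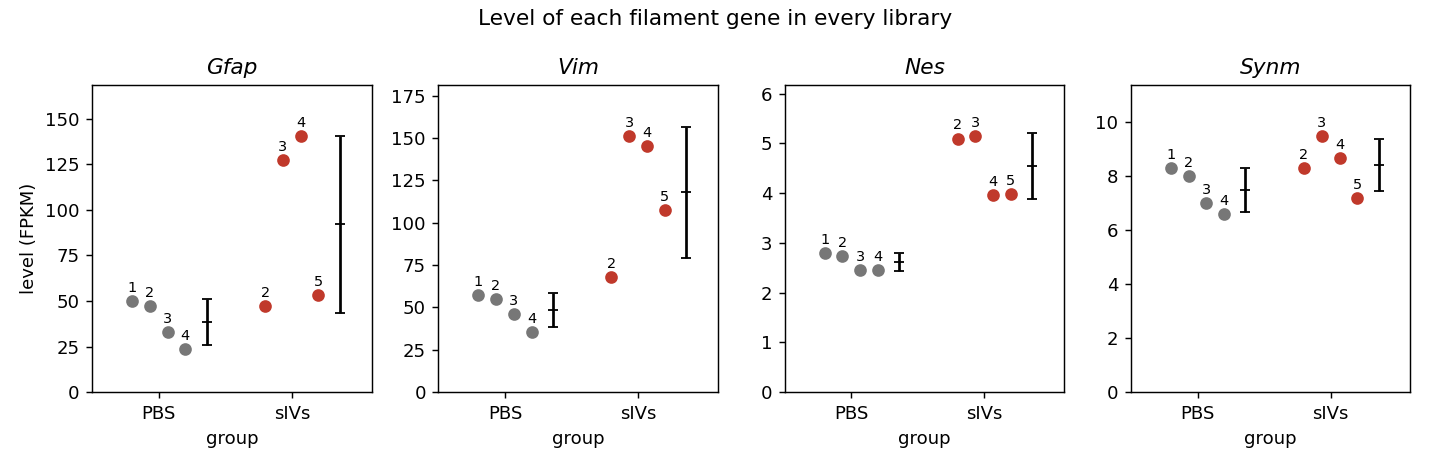
Level of Gfap, Vim, Nes and Synm in FPKM (vertical axes, each from 0) in every library, numbered as in the labels, for PBS (grey) and sIVs (red); black bars are the mean and SD of 4 libraries. Gfap is high in sIVs libraries 3 and 4, Vim in 3, 4 and 5, Nes in all 4 sIVs libraries, and Synm overlaps between the groups.

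Gene start sequences are shown for Gfap and Nes because these were the genes whose sIVs values depended most and least on libraries 3 and 4. They are the bases before the RefSeq start (build GRCm38.p6) that lie in no exon of the gene in GENCODE M21, 5′ to 3′ on the gene's strand, with motif matches in capitals. The Gfap stretch of 250 bases is chr11:102897201-102897450, minus strand, inside the deposited bounds of the gene, and the Nes stretch of 235 bases is chr3:87970843-87971077, plus strand.
Gfap: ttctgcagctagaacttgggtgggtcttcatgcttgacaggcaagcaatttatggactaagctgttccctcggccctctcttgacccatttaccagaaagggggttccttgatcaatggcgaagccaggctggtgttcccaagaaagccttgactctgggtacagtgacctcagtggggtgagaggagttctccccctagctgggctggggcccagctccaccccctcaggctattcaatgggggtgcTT
Nes: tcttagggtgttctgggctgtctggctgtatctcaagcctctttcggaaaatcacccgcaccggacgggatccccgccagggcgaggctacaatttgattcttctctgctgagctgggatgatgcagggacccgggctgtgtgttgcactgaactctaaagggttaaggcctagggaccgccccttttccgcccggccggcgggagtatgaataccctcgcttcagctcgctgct
The 300 bases from 250 before to 50 after the RefSeq start were searched for 4 motifs. These were TTCNNNGAA (bound by STAT factors, either strand), TGANTCA (bound by AP-1, either strand), CCAAT (either strand) and TATAA (gene strand). Of 32851 RefSeq windows of that length, 8.3%, 7.81%, 37.4% and 17.5% held them. The Gfap window held 1 STAT match, across the RefSeq start and ending 63 bases before the start of the principal transcript Gfap-201. The Vim window lies inside a 5′ untranslated exon of transcript Vim-201, so only short stretches of it are shown, and it held 2 CCAAT matches and 1 TATAA match. Synm held 1 CCAAT match and Nes none of the 4 motifs. Matches are in capitals below; the 3 stretches are chr11:102897186-102897210 (minus strand), chr2:13574271-13574291 (plus strand) and chr7:67759808-67759828 (minus strand).
Gfap STAT match: gggggtgcTTCCAGGAAgtcagggg
Vim TATAA match: aacagtgtTATAAaagcagcg
Synm CCAAT match: gcgtcctgATTGGctggaggc
The AP-1 motif was found in 0 of the 4 windows.

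Over the 4 genes, the count of sIVs libraries exceeding the whole PBS group was 4 of 4 for Vim and Nes, 3 for Gfap and 2 for Synm. Over all tested genes, 4.42% had all sIVs libraries above all PBS libraries and 3.36% all below.

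The levels per length kept 1 order in 8 of 8 libraries: Vim highest, then Gfap, Synm and Nes. Vim was 1.15 to 1.5 times Gfap in PBS and 1.04 to 2.0 times in sIVs. In sIVs library 4 the 2 were nearly equal and in library 5 Vim was highest relative to Gfap. The ratio of the 2 thus did not differ between PBS and sIVs beyond its spread (exact permutation p = 0.771). Gfap was 3.58 to 6.01 times Synm in PBS and 5.7 to 16.2 times in sIVs. Synm was 2.67 to 2.97 times Nes in PBS and 1.63 to 2.19 times in sIVs, ranges that do not touch. The deposited lengths, 4743 bases for Vim and 4218 for Gfap, equal the union of all exons in GENCODE M21. The principal transcripts measure 2193 bases for Vim, 2648 for Gfap, 6126 for Nes and 7818 for Synm. With those lengths the order held in 8 of 8 libraries and Vim was 1.56 to 2.04 times Gfap in PBS and 1.41 to 2.72 times in sIVs, so the near equality in sIVs library 4 rests on the deposited lengths.

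Vim and Gfap together made up 86.7% to 90.6% of the summed FPKM of the 4 genes in PBS and 89.6% to 95.8% in sIVs. The Gfap share was 42.2%, 42.0%, 37.1% and 34.6% in PBS libraries 1 to 4 and 36.7%, 43.4%, 47.0% and 31.1% in sIVs libraries 2 to 5. The share of Vim was highest in sIVs library 5, at 62.4%, the library in which that of Gfap was lowest. The Synm share ran from 7.02% to 9.68% in PBS and from 2.90% to 6.44% in sIVs.

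Within PBS, the genes differed in how much they varied. Gfap differed 2.12-fold between its highest and lowest PBS library and Vim 1.62-fold, against 1.14-fold for Nes and 1.26-fold for Synm. Gfap, Vim and Synm were highest in PBS library 1 and lowest in PBS library 4. The SD of Gfap over the PBS libraries was 0.50 on the log2 scale, larger than that of 99.4% of the 817 tested genes of similar abundance, whose median was 0.07. For Vim it was 0.31 (above 98% of 447 genes) for Synm 0.16 (above 90.7% of 2784 genes) and for Nes 0.10 (above 35% of 2626 genes). In sIVs the SDs were 0.82 for Gfap (above 97.7% of the same genes), 0.54 for Vim (88.8%), 0.21 for Nes (58.5%) and 0.17 for Synm (59.2%).

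Relative to its PBS mean, Gfap stood at 0.36, 1.79, 1.93 and 0.54 on the log2 scale in sIVs libraries 2 to 5, and Vim at 0.51, 1.67, 1.61 and 1.17. Nes stood at 0.96, 0.98, 0.60 and 0.61 there. In sIVs library 2, where Gfap lay within the PBS range, Nes was nearly as far above its PBS mean as in library 3. The median of the 10 Müller markers was -0.30, 0.33, 0.49 and -0.61 in these libraries, and that of the 10 rod markers 0.08, -1.88, -1.91 and -0.24. Gfap, the Müller median and the rod median thus set libraries 3 and 4 apart, and Nes did not. The part of the rod change in the Gfap and Vim values was not tested.

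**Figure D2:**
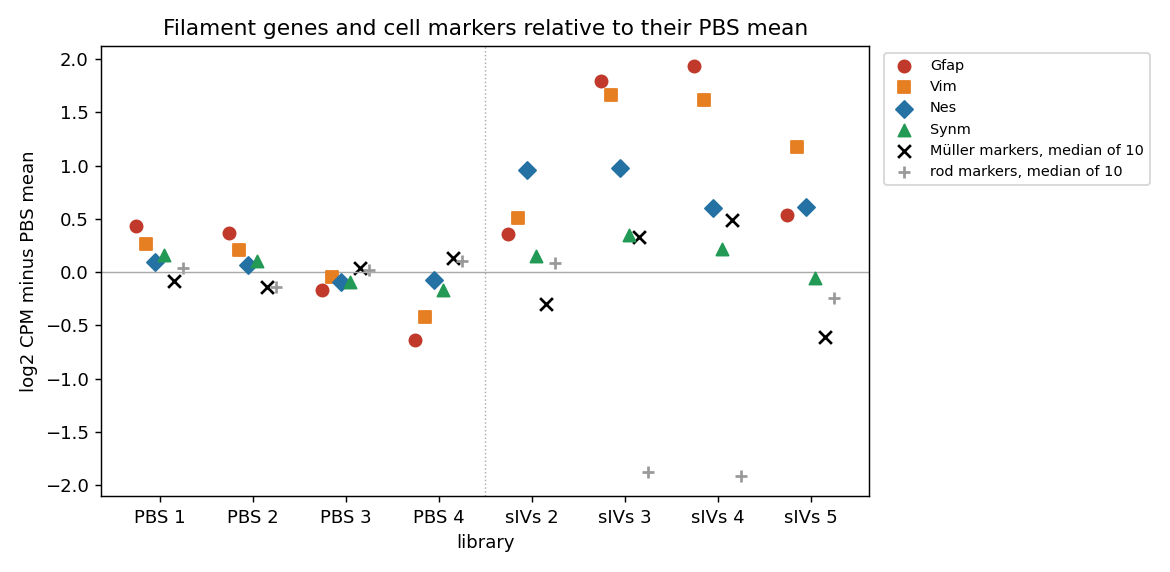
Log2 CPM (counts relative to the library total after TMM scaling) minus the gene's own PBS mean (vertical axis) for the 4 filament genes, with the medians of 10 Müller markers (crosses) and 10 rod markers (plus signs), in each library (horizontal axis). Gfap and Vim peak in sIVs libraries 3 and 4, where the rod median is -1.88 and -1.91, while Nes lies between 0.60 and 0.98 in all 4 sIVs libraries.

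Whether the genes moved by unequal amounts was asked of their log2 ratios, with an exact two-sided permutation test over 70 relabellings (smallest possible p 0.0286) and Benjamini-Hochberg adjustment over 10 comparisons. None of the 10 passed at an adjusted p of 0.05. Since no p can lie below 0.0286, the adjusted p of a ratio rests on how many of the 10 reach that floor together. The ratio of Nes to Synm was -1.54, -1.52, -1.47 and -1.38 in PBS libraries 1 to 4 and -0.69, -0.87, -1.11 and -0.83 in sIVs libraries 2 to 5. It was higher in 4 of 4 sIVs libraries, by 0.60 on average (exact permutation p = 0.0286, adjusted p = 0.0571). Vim to Synm differed by 1.07, also without overlap (exact permutation p = 0.0286, adjusted p = 0.0571). Differences without sIVs libraries 3 and 4 were 0.72 for Nes to Synm and 0.79 for Vim to Synm, and 0.40, -0.39, -0.32 and 0.07 for Gfap to Synm, Gfap to Vim, Gfap to Nes and Vim to Nes. For Gfap to Synm the difference was 0.99 (exact permutation p = 0.0857, adjusted p = 0.143). Gfap to Vim differed by -0.09 (exact permutation p = 0.771) and Gfap to Nes by 0.39 (exact permutation p = 0.429). Vim to Nes differed by 0.47, with sIVs library 2 below every PBS library and the other 3 above (exact permutation p = 0.257).

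Measured against the mean of the 10 Müller markers, Gfap, Vim and Nes were higher in 4 of 4 sIVs libraries than in any PBS library, and Synm in 2 of 4. The differences were 1.21 for Gfap, 1.30 for Vim and 0.83 for Nes (exact permutation p = 0.0286 and adjusted p = 0.0571 for each), and 0.23 for Synm (exact permutation p = 0.257, adjusted p = 0.321). For Gfap the ratio was -0.30 in sIVs library 2 against -0.36 in the highest PBS library, and for Nes it was -4.40 in sIVs library 4 against -4.46, so both separations were narrow. Without sIVs libraries 3 and 4 the differences were 0.87 for Gfap, 1.26 for Vim, 1.19 for Nes and 0.47 for Synm, and the smallest possible p was 0.0667. The median log2 fold change of the Müller markers themselves was then -0.45, against 0.06 with all libraries. Leaving out sIVs library 2 instead brought 7 of the 10 ratios to an adjusted p of 0.0408, Gfap, Vim and Nes to the Müller markers among them. The marker list did not move as 1: Glul, the glutamine synthetase of Müller glia, was at 688.7 ± 116.8 FPKM in PBS and 354.5 ± 94.2 FPKM in sIVs (SD with n = 4 in both groups; edgeR gave adjusted p = 0.153). Slc1a3, the glial glutamate transporter, was at 29.7 ± 0.573 FPKM in PBS and at 29.5, 54.6, 58.8 and 23.9 FPKM in sIVs libraries 2 to 5. Rlbp1, the retinaldehyde carrier of Müller glia, was at 90.7, 171.9, 183.1 and 41.7 FPKM there, against 94.998 to 150.97 FPKM in PBS (edgeR adjusted p = 0.929).

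**Figure D3:**
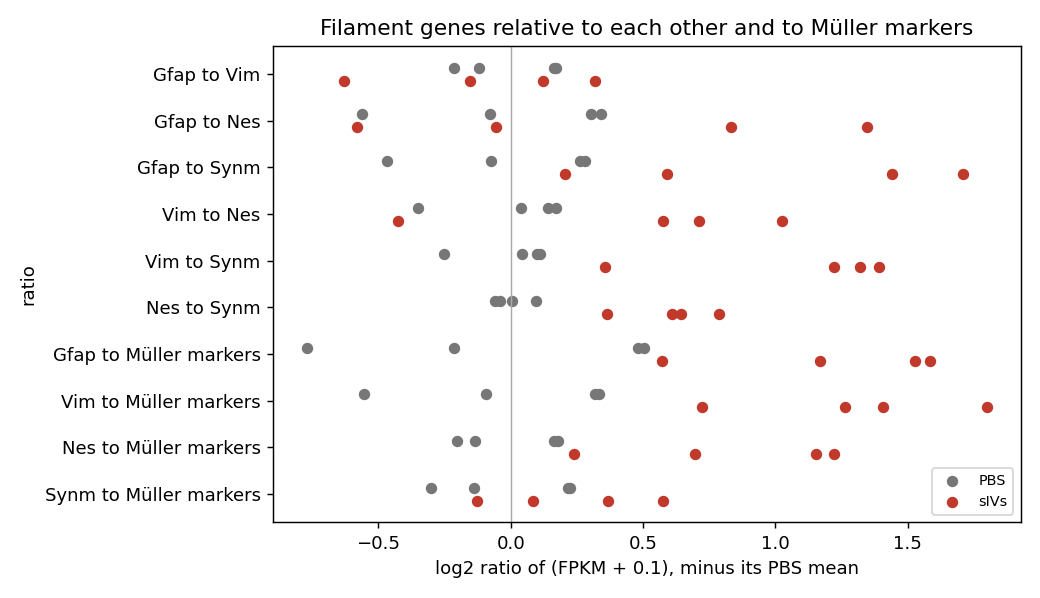
Log2 ratios of FPKM + 0.1 between the 4 filament genes, and of each gene to the mean of 10 Müller markers, minus the PBS mean of the ratio (horizontal axis); each point is a library, PBS grey and sIVs red. The groups do not overlap for Vim to Synm, Nes to Synm, and Gfap, Vim and Nes to the Müller markers.

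Other intermediate filament genes did not share 1 direction. Of 21 listed, 16 were tested; 0 passed edgeR, and 8 were positive; the median log2 difference was -0.0005 against -0.005 over all tested genes. Lmna, the nuclear lamin A/C gene, stood at 3.51, 3.35, 2.86 and 3.46 FPKM in PBS libraries 1 to 4 and at 3.86, 7.18, 6.53 and 5.24 FPKM in sIVs libraries 2 to 5 (log2 difference 0.79, SE 0.18, edgeR adjusted p = 0.161). Of the 16 genes, 1 (Lmna) had all sIVs libraries above PBS, against 4.42% of all tested genes. Its value without sIVs libraries 3 and 4 was 0.46 (edgeR adjusted p = 0.227). Prph, which encodes the neuronal filament peripherin, stood at 9.94, 9.47, 5.06 and 4.69 FPKM in PBS and 8.95, 24.2, 22.7 and 8.18 FPKM in sIVs libraries. Its log2 difference was 1.13 (SE 0.40, edgeR adjusted p = 0.252). Its sIVs libraries 3 and 4 were the high ones, and without them the value was 0.22 (edgeR adjusted p = 0.766). The median of the 16 genes was then 0.10.

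The neurofilament and internexin genes had negative fold changes, except that Nefm was at 0.01 without PBS library 4. Nefh, the heavy neurofilament gene, was at 32.6 ± 6.41 FPKM in PBS and 25.4 ± 2.67 FPKM in sIVs (SD with n = 4 in both groups; log2 difference -0.36, edgeR adjusted p = 0.269), below PBS in 4 of 4 sIVs libraries, and at -0.25 without sIVs libraries 3 and 4. Nefl, Nefm and Ina, which encode the light and medium neurofilaments and internexin, differed by -0.20, -0.10 and -0.16 on the log2 scale (adjusted p = 0.356, 0.685 and 0.423 by edgeR). All 6 ganglion cell markers, whose axons carry neurofilaments, had negative fold changes as well, with a median of -0.16. Over all tested genes 49% were positive. Without sIVs libraries 3 and 4 the median of the 6 was -0.26. They summed to 244.4 FPKM in PBS library 4 and to 188.6 to 206.3 FPKM in the other PBS libraries. The lamin genes Lmnb1 and Lmnb2 had log2 fold changes of -0.18 (0.13 without sIVs libraries 3 and 4) and 0.09. Krt18, the keratin 18 gene, was at 104.9 ± 16.4 FPKM in PBS and at 114.6, 55.4, 60.7 and 153.0 FPKM in sIVs libraries 2 to 5. Its partner Krt8 was at 0.617 FPKM in PBS and 1.12 FPKM in sIVs (log2 difference 0.87, SE 0.49, edgeR adjusted p = 0.425). Iffo2, Sync, Bfsp2, Des, Iffo1 and Krt12 had log2 fold changes of 0.38, 0.33, 0.12, 0.08, -0.08 and -0.42, and those of Bfsp2, Des and Iffo1 took the other sign without sIVs libraries 3 and 4.

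**Figure D4:**
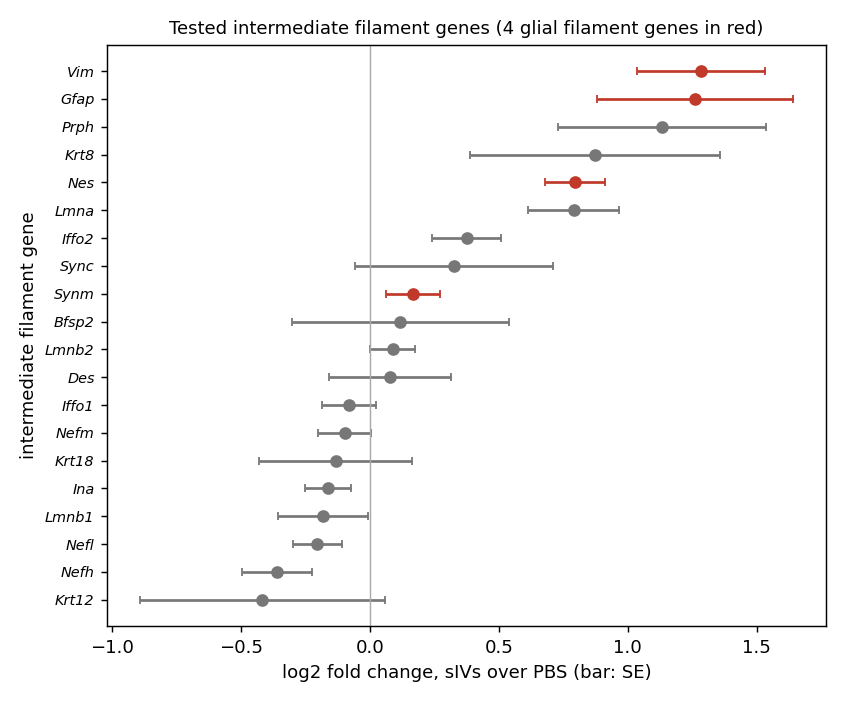
Log2 fold change of sIVs over PBS with its SE (horizontal axis) for the 20 tested intermediate filament genes, the 4 glial filament genes in red. Vim and Gfap have the largest values, 1.28 and 1.26, and no gene passed the edgeR test after adjustment over all genes.

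Genes whose products tie filaments to membranes and adhesion sites had a median log2 fold change of 0.08. Of 15 listed, 14 were tested, 0 passed edgeR and 8 were positive. All sIVs libraries were above PBS in 1 and below in 2, against 4.42% and 3.36% of all tested genes. Without sIVs libraries 3 and 4 the median was -0.03 and 5 were positive. At an unadjusted p under 0.05, 0 were then higher and 4 lower, against 6.73% and 7.01% of all genes. Zyx, the focal adhesion protein zyxin, was at 5.47 ± 0.51 FPKM in PBS and 6.93 ± 0.677 FPKM in sIVs (SD with n = 4 in both groups; log2 difference 0.34, edgeR adjusted p = 0.192), above PBS in 4 of 4 sIVs libraries. Dmd, whose dystrophin isoforms anchor Müller endfeet and also lie at the photoreceptor synapse, was at 7.57 ± 0.442 FPKM in PBS and at 7.07, 3.65, 3.38 and 4.75 FPKM in sIVs libraries 2 to 5 (log2 fold change -0.69, edgeR adjusted p = 0.196). Zyx was at 0.21 and Dmd at -0.36 without sIVs libraries 3 and 4. Macf1, another gene of the list chosen after its value was seen, was below PBS in 4 of 4 sIVs libraries, as Dmd was. Its log2 fold change was -0.31 (edgeR adjusted p = 0.198), and -0.32 without libraries 3 and 4. Plec, which encodes the filament linker plectin and was chosen after its value was seen, was at 6.35, 11.5, 10.98 and 8.24 FPKM in sIVs libraries against 6.10 to 6.61 FPKM in PBS (log2 fold change 0.54, edgeR adjusted p = 0.208, and 0.19 without libraries 3 and 4).

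Kinases, proteases and chaperones that act on filaments had a median log2 fold change of 0.16, with 19 of 20 tested and 0 past edgeR. At an unadjusted p under 0.05, 7 were higher and 1 lower, where 9.61% and 5.63% of all tested genes were. These counts were 2 and 1, and the median -0.0019, without sIVs libraries 3 and 4. Padi2, an enzyme that citrullinates proteins, GFAP and vimentin among them, stood at 15.6, 16.5, 15.1 and 12.0 FPKM in PBS libraries 1 to 4 and 16.2, 47.1, 44.3 and 19.2 FPKM in sIVs libraries 2 to 5 (log2 fold change 1.10, edgeR adjusted p = 0.196). Cryab, the small heat shock protein that chaperones GFAP, stood at 27.2 to 33.5 FPKM in PBS and 32.2, 84.8, 90.9 and 40.1 FPKM in sIVs (log2 fold change 0.99, edgeR adjusted p = 0.205). In both, sIVs libraries 3 and 4 were high and library 2 lay within the PBS range. Without libraries 3 and 4 the values were 0.25 for Padi2 (edgeR adjusted p = 0.359) and 0.21 for Cryab (edgeR adjusted p = 0.419).

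Signals and factors known to act on Gfap transcription had a median log2 fold change of 0.28. Of 22 listed, 21 were tested and 0 passed edgeR. Of these, 17 were positive, against 49% of all tested genes. In 7 all sIVs libraries were above all PBS libraries, against 4.42% over all genes. This list, like the others, was chosen with earlier results of these data known, so such counts are a description. Clcf1, an interleukin-6 family cytokine gene, was at 1.35 ± 0.189 FPKM in PBS and at 2.64, 3.66, 3.11 and 4.05 FPKM in sIVs libraries 2 to 5 (log2 fold change 1.32, edgeR adjusted p = 0.0868). Osmr, the oncostatin M receptor gene, was at 2.19 ± 0.594 FPKM in PBS and 3.44, 7.09, 7.55 and 3.78 FPKM in sIVs libraries (log2 fold change 1.32, edgeR adjusted p = 0.161). The other 5, chosen after their values were seen, were Stat3, Lif, Socs3, Smad1 and Sox9, with log2 fold changes of 0.69, 2.02, 1.73, 0.10 and 0.64. The median of the 21 was 0.13 without sIVs libraries 3 and 4, and Clcf1, Osmr, Stat3, Lif, Socs3, Smad1 and Sox9 were at 1.31, 0.71, 0.68, 1.87, 1.62, 0.13 and 0.21. Socs3, the STAT3-induced inhibitor, stood at 13.8, 13.2, 4.89 and 3.25 FPKM in PBS libraries 1 to 4, so that libraries 1 and 2 were high and 3 and 4 low, as for Gfap, and at 19.0, 31.2, 31.5 and 35.2 FPKM in sIVs. Stat3 itself stood at 27.2, 26.8, 20.1 and 16.1 FPKM in PBS and 29.4, 36.7, 35.95 and 43.2 FPKM in sIVs.

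All 9 genes often raised with filaments in reactive astroglia were tested and had positive fold changes, with a median of 1.56, and 0 passed edgeR. Over all tested genes 49% were positive, with a median of -0.005. In 2 of the 9 all sIVs libraries were above all PBS libraries, against 4.42% of all tested genes. Cd44, the hyaluronan receptor, stood at 4.19, 5.70, 4.33 and 2.67 FPKM in PBS and 5.97, 28.3, 27.4 and 11.5 FPKM in sIVs libraries 2 to 5 (edgeR adjusted p = 0.161). Timp1, a metalloproteinase inhibitor gene, stood at 5.07, 7.71, 3.98 and 1.75 FPKM in PBS and 6.27, 21.8, 23.9 and 16.1 FPKM in sIVs (edgeR adjusted p = 0.168). The median of the 9 was 0.81 without sIVs libraries 3 and 4, with Cd44 at 1.05 and Timp1 at 1.26. Of the 9, 8 were then positive, with S1pr3 at -0.03, against 9087 of all 18261 tested genes. The summed level of the 9 genes was lowest in PBS library 4, at 73.5 FPKM against 150.4 to 201.6 FPKM in the other PBS libraries, the library in which Gfap and Vim were lowest too. In sIVs libraries 2 to 5 the sum was 195.9, 532.8, 592.5 and 334.4 FPKM, so library 2 lay inside the PBS range.

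Summed markers of astrocytes, microglia and vascular cells, which can also hold these filaments, were highest in sIVs libraries 3 and 4. The 5 astrocyte markers summed to 19.2 to 21.7 FPKM in PBS and to 21.6, 47.6, 46.8 and 22.4 FPKM in sIVs libraries 2 to 5. Most of that sum in libraries 3 and 4 was Aldh1l1, a folate enzyme gene of astroglia, at 8.68, 33.4, 35.2 and 12.6 FPKM. Pax2, the defining retinal astrocyte factor, was at 0.172 ± 0.0682 FPKM in PBS and 0.231 ± 0.0773 FPKM in sIVs (SD with n = 4 in both groups; edgeR gave adjusted p = 0.613). The other 4 astrocyte markers summed to 12.2 to 14.9 FPKM in PBS and 9.86 to 14.2 FPKM in sIVs. The 9 microglia markers summed to 79.6 to 136.5 FPKM in PBS and to 110.2, 216.5, 276.8 and 82.1 FPKM in sIVs. Of these 9 markers, 8 had positive fold changes with all libraries, against 49% of all tested genes. The exception was P2ry12, a receptor gene of resting microglia chosen after its value was seen. It was below PBS in 4 of 4 sIVs libraries (log2 fold change -0.64, edgeR adjusted p = 0.223). Endothelial markers (7 genes) summed to 55.9 to 63.8 FPKM in PBS and 52.6, 89.6, 94.2 and 58.1 FPKM in sIVs, and pericyte and smooth muscle markers (8 genes) to 30.7 to 38.6 and 32.4, 41.0, 44.96 and 32.4 FPKM. Without Kdr, a growth factor receptor gene also chosen after its value was seen, the endothelial sum was 27.8 to 33.99 FPKM in PBS and 27.5, 32.9, 38.4 and 37.1 FPKM in sIVs libraries 2 to 5. Fibroblast markers (5 genes) summed to at most 2.84 FPKM, lens markers (6 genes) to at most 2.86 FPKM and skeletal muscle markers (5 genes) to at most 4.46 FPKM in any library. Pigment epithelium markers (7 genes) ran from 24.0 to 95.7 FPKM in PBS and from 15.3 to 52.1 FPKM in sIVs. Median log2 fold changes of the astrocyte, microglia, endothelial and pericyte markers were 0.10, 0.56, 0.18 and 0.36. Without sIVs libraries 3 and 4 they were -0.16, -0.41, -0.02 and -0.10. Of the 9 microglia markers 0 were then positive, against 9087 of all 18261 tested genes. No list held a marker at 0 in every library. The part of astrocyte, microglial and vascular RNA in the filament values was not tested.

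The genes whose profiles were most like each member were found among coding genes averaging 1 CPM or more, by the root mean square difference of log2 CPM relative to the PBS mean over 8 libraries. For Gfap they were Glipr2, Vwa5a and Cfi, the complement factor I gene, at differences of 0.14, 0.16 and 0.16, against a median of 1.02 over all genes compared. For Vim they were Bmp1, a procollagen-processing protease gene, and the TNF receptor family genes Ltbr and Tnfrsf1a, at 0.09, 0.13 and 0.15 (median 0.97). For Nes they were F3, the tissue factor gene that starts coagulation, Cracr2a and Ceacam16, at 0.12, 0.16 and 0.17 (median 0.60). For Synm, whose profile was nearly flat, they were Mamdc2, Cdk7 and Snx6 at 0.07, 0.07 and 0.08 (median 0.27). Among the members, Gfap and Vim were closest, at 0.29, and Gfap and Synm farthest, at 0.85.

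Bmp1 stood lower than Vim, at 4.83, 5.51, 4.32 and 3.33 FPKM in PBS libraries 1 to 4 and 5.92, 13.3, 13.4 and 9.09 FPKM in sIVs libraries 2 to 5. The gene most like Nes, F3, stood at 5.44, 4.23, 4.47 and 4.27 FPKM in PBS and 7.88, 8.00, 6.99 and 7.04 FPKM in sIVs. All 4 sIVs libraries were above PBS. As F3 was picked by likeness to Nes over the same libraries, this is no separate result. Glipr2, most like Gfap, stood at 2.38, 2.43, 1.58 and 1.13 FPKM in PBS and 2.05, 6.02, 7.09 and 3.33 FPKM in sIVs. Log2 fold changes of Bmp1, F3 and Glipr2 were 0.73, 0.69 and 0.51 without sIVs libraries 3 and 4.

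**Figure D5:**
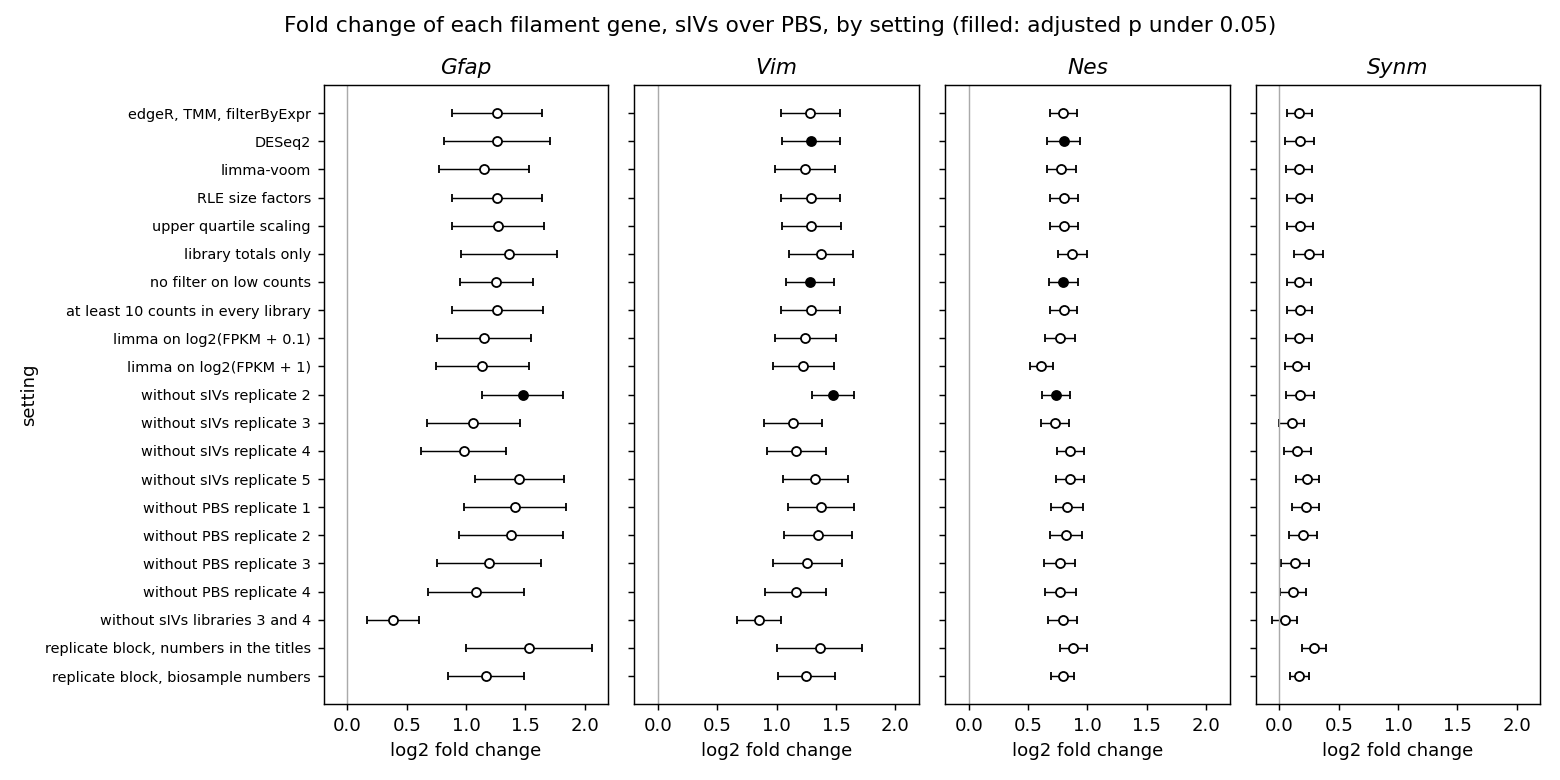
Log2 fold change of each filament gene, sIVs over PBS, with its SE (horizontal axes) under each setting (rows); filled points had an adjusted p under 0.05. Every value shown is above 0; without sIVs libraries 3 and 4 the value is 0.39 for Gfap, 0.85 for Vim and 0.79 for Nes.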

How the data were processed

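Poly(A)-selected, strand-marked RNA libraries of retina were sequenced in pairs on an Illumina instrument, per the labels' protocols. The submitters' processing notes name mm10; the sources used here give no aligner, counter, annotation or strand setting. The authors deposited whole-number gene counts, and FPKM values that, checked here, equal the count over gene length and library total, times 1 constant per library (0.93 to 1.033, tolerance 0.1%). The constants lay close to the reciprocals of the TMM factors found here, as with 0.93 against 0.932 in sIVs library 3 and 1.026 against 1.023 in sIVs library 2.

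The test on counts was that of edgeR 4.0.16 (R 4.3.3): filterByExpr, TMM scaling, glmQLFit and glmQLFTest with group as the only term, Benjamini-Hochberg adjustment over 17725 genes, threshold 0.05. SEs come from the F statistic. Ratios used log2(FPKM + 0.1). Alternatives used DESeq2 1.42.0, limma 3.58.1, other scalings, filters and pseudocounts, left-out libraries and replicate blocks; principal transcript lengths, the lists without sIVs libraries 3 and 4, and marker sums without Kdr or Aldh1l1 were added after the data were seen. No 2 libraries agreed within sampling noise (lowest chi-square per gene 3.65, between sIVs library 2 and PBS library 1).

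Named genes were the members, all tested filament genes, the 2 of smallest p in each list, the 3 most like each member, and 5 cell markers. Members and lists were chosen with earlier results of these data known. Promoter windows are RefSeq's, all 4 genes matched; protein sequences were not used here.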

Additional observations from a re-analysis of the deposited data

Results flagged for a closer look

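The log2 ratio of Vim to Synm was 3.02 in sIVs library 2, against 3.98, 4.06 and 3.88 in sIVs libraries 3 to 5, a gap of 0.835 of the group's whole range. That exceeds Dixon's 95% critical value for 4 samples. It was the 1 value set apart in this way among 28 sets of 4 libraries examined (the 4 genes and the 10 ratios in each group), where chance sets apart about 1 in 20. The value lay above every PBS library, the highest of which was at 2.77.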

How the results depend on the processing

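The log2 fold changes of Gfap, Vim, Nes and Synm were above 0 under every alternative run. Over leaving out each library in turn they ran from 0.98 to 1.48, 1.14 to 1.47, 0.73 to 0.86 and 0.10 to 0.24. Genes called ran from 0 to 1331, and from 0 to 19 in the lists of the filament system. The upper ends came without sIVs library 2, where 17999 genes were tested. In the main fit those lists (other filaments, linkers, modifiers, Gfap regulators and reactive genes) held 16, 14, 19, 21 and 9 tested genes. DESeq2 called 571 of 17725 genes (465 higher and 106 lower, 13 of them in the lists) with Vim at 1.29 and Nes at 0.80. With no filter on low counts edgeR called 152 of 33760 (7 in the lists) with Vim at 1.28 and Nes at 0.80. Without sIVs libraries 3 and 4 it called 3 of 18261, and at a threshold of 0.1 it called 11 of 17725 (1 in the lists), Nes at 0.80 among them.

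With the replicate block on title numbers the values of Gfap, Vim, Nes and Synm were 1.53, 1.36, 0.88 and 0.29 (edgeR adjusted p = 0.376 each). PBS library 1 and sIVs library 5 had no same-numbered partner, so these values rest on libraries 2 to 4 of each group. With the block on biosample numbers the values were 1.16, 1.25, 0.79 and 0.17 (edgeR adjusted p = 0.26, 0.253, 0.239 and 0.413). With either block 0 genes were called. Deviations of same-numbered libraries correlated at -0.00916, 0.0623 and -0.0746 by title and at -0.0886, 0.0451, 0.113 and 0.0934 by biosample, so the numbers were not taken to pair samples. Scaling by library totals alone moved the median of all genes by 0.07 and the share of positive fold changes from 49% to 64%.

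Ratio differences over left-out libraries ran from 0.75 to 1.25 for Gfap to Synm, 0.29 to 0.77 for Vim to Nes, 0.97 to 1.31 for Vim to Synm and 0.54 to 0.68 for Nes to Synm. To the Müller markers they ran from 0.96 to 1.43 for Gfap, 1.11 to 1.49 for Vim, 0.70 to 1.02 for Nes and 0.11 to 0.34 for Synm. Gfap to Vim ran from -0.22 to 0.096, turning positive without sIVs library 5, and Gfap to Nes from 0.065 to 0.71, at -0.32 without sIVs libraries 3 and 4.

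These values took the other sign, and the cause was not tested. Without sIVs libraries 3 and 4 they were Lmnb1 0.13, Iffo1 0.085, Krt18 0.35, Des -0.056, Bfsp2 -0.70, Mamdc2 -0.0033, Snx6 -0.0096, Rlbp1 -0.79 and Slc1a3 -0.16. Rlbp1 was at -0.10 with limma-voom, -0.096 and -0.093 with limma on log2(FPKM + 0.1) and log2(FPKM + 1), -0.057 with the biosample block, and -0.12 and -0.17 without sIVs library 3 or 4 (left-out libraries, -0.17 to 0.38). Without the same libraries Krt18 was at 0.056 and 0.034 (range -0.45 to 0.056). Without sIVs library 4 Des was at -0.049 (range -0.049 to 0.20) and Bfsp2 at -0.34 (range -0.34 to 0.37); without PBS library 1 or 3 Des was at -0.018 and -0.032, without PBS library 2 Bfsp2 at -0.014, and without PBS library 4 Nefm at 0.0060 (range -0.14 to 0.0060). Of 1099 alternative values of 58 results, 1007 kept direction and side of the threshold.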
